A study of Mus musculus with 4514 samples.

Results

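Bulk RNA sequencing compared portal with mid-lobular hepatocytes, 2 neighbouring populations of the adult mouse liver lobule. The members are 4 poly(A) RNA-seq libraries out of the 4514 samples of the series, taken by their labels: 2 libraries of portal cells (PV) and 2 of mid-lobular cells (ML). The 2 libraries of central cells (CV) from the same sort were used as the far end of the axis. PV cells were collected as CD324+, CV cells as CD73+, and ML cells as negative for both antigens (CD324-;CD73-), so ML was defined by what it lacked. All 6 libraries came from the livers of untreated mice at P60, and every group carried Alb-Cre; Rosa-tdTomato, a reporter that is switched on where the albumin promoter drives the Cre recombinase. No label names an animal, so p-values measure only the spread between libraries, which may be technical.

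Blood enters the liver lobule at the portal vein and leaves it at the central vein, and hepatocytes along this path divide the work of the organ between them. Portal hepatocytes are known for gluconeogenesis, urea synthesis and secretion of plasma proteins. Central hepatocytes receive Wnt signals from the central vein and are known for cytochrome P450 enzymes, bile acid synthesis and glutamine synthesis. Genes whose level changes step by step along the path are called graded here. Fewer cells of a type in a sort and less RNA per cell cannot be told apart in bulk libraries.

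The PV libraries held 13889655 and 22729462 counts, the ML libraries 18143472 and 16049840, and the CV libraries 13144208 and 14596435. Levels are given as CPM, counts scaled to a common library size that is adjusted for composition (TMM), in the order replicate 1 then replicate 2. A PV and an ML library correlated at 0.982 to 0.986 on log2 CPM over the genes tested, against 0.985 for the PV pair and 0.985 for the ML pair, while CV libraries correlated at 0.928 to 0.951 with the others. RNA of neither sorting antigen was called between PV and ML. Cdh1, which encodes CD324, stood at 15.2 and 13.8 CPM in PV and 11.2 and 12.1 in ML (log2 difference 0.31 ± 0.21 SE, adjusted p = 0.618), so its PV libraries were above its ML libraries without passing the test. It stood at 0.972 and 0.190 in CV. Nt5e, which encodes CD73, was at 6.94 and 6.33 CPM in CV and at most 0.381 in the other 4 libraries.

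The summed levels of macrophage, stellate and endothelial markers were lower in PV and ML than in CV. The 4 hemoglobin genes, Col1a1 and S100a8 had no count in any library, where 3 counts would be at most 0.228 CPM. Alas2 of the erythroid list (63.4 to 77.5 CPM) and Krt8 of the mesothelial list (55.1 to 64.8 CPM) were present in all 6 libraries. The summed level of the macrophage markers was 0.0771 and 0.187 CPM in PV, 0.170 and 0.254 in ML, and 26.5 and 12.1 in CV. Stellate and fibroblast markers summed to 0.386 and 0.747 CPM in PV, 3.91 and 1.78 in ML, and 98.3 and 118.6 in CV. Endothelial markers summed to 8.48 and 5.05 CPM in PV, 10.4 and 3.24 in ML, and 59.8 and 28.2 in CV. The part of these cells in the CV values was not tested. Among cholangiocyte markers, Spp1 (osteopontin) varied between libraries of 1 group, at 3.93 and 14.7 CPM in PV and 0.680 and 47.3 in ML, while Epcam and Krt19 stayed at or below 0.381 CPM.

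Few genes were called between PV and ML with 2 libraries per group, and a gene without a call may still differ. Before adjustment, 1295 genes had p under 0.05 in the edgeR test. Of 10984 genes tested, 95 were higher in PV (0.865%) and 67 were higher in ML (0.61%) at an adjusted p of 0.05. The differences were small, with a median of 1.23-fold for the genes higher in PV and 1.43-fold for those higher in ML. Of the genes higher in PV, 1 reached 2-fold, and of those higher in ML 21 did. That 1 gene, named after its value was seen, was Ctnnbip1, which encodes a protein that binds β-catenin and blocks its contact with TCF factors. Ctnnbip1 stood at 7.02 and 9.67 CPM in PV, 3.51 and 3.93 in ML, and 0.139 and 0.380 in CV. Its log2 difference was 1.18 ± 0.24 (adjusted p = 0.0266), and the PV, ML and CV libraries did not overlap. The same test between CV and ML, which shares the ML libraries, found 1250 genes higher in CV (11.4%) and 1161 higher in ML (10.6%).

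The counts depended on single libraries and on the scaling. Without ML replicate 1 or ML replicate 2 the genes higher in PV numbered 46 and 47, and without PV replicate 2 they numbered 56. Without CV replicate 1 they made up 1.47% of 11318 genes tested, and without CV replicate 2 they made up 1.45% of 11420. The genes higher in ML numbered 32 without ML replicate 1 and 36 without PV replicate 2. With library totals alone and no composition factor, 60 genes (0.546%) were higher in PV and 0.974% were higher in ML, so PV held 35.9% of the calls against 58.6% with the factor. All 60 were among the 95, and all 67 genes higher in ML with the factor were still called.

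The 4 genes taken as markers of the comparison, Hsd17b6, Csad, Gulo and Cyp7a1, were all graded. They were chosen with earlier results of these data known, so their order is a description and not independent evidence. Hsd17b6 encodes a dehydrogenase of steroids and retinol and lies at chr10:127990936-128007611 (GRCm38). It stood at 167.6 and 156.5 CPM in PV, 92.97 and 94.8 in ML, and 5.49 and 5.57 in CV. The 3 groups were apart, and the level fell from portal to central (PV minus ML log2 0.79 ± 0.06, adjusted p = 2.52e-05). ML lay 43.5% of the way from the PV level to the CV level, where 0 would be the PV mean and 100 the CV mean in CPM.

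The other markers ran in the opposite direction. Csad (chr15:102176999-102204724) encodes the decarboxylase that makes hypotaurine, the precursor of taurine, and stood at 20.05 and 18.4 CPM in PV, 51.9 and 42.8 in ML, and 112.6 and 101.5 in CV. Its PV minus ML difference was -1.31 ± 0.10 on the log2 scale (adjusted p = 2.56e-05), and its step from ML to CV was of like size at 1.17 ± 0.09. Gulo (chr14:65986786-66009207), the enzyme of the last step of vitamin C synthesis, stood at 69.2 and 48.9 CPM in PV, 157.7 and 128.02 in ML, and 696 and 696 in CV. Every ML library was above both PV libraries (log2 -1.28 ± 0.13, adjusted p = 1.92e-04). Cyp7a1 (chr4:6265612-6275633), the rate-limiting enzyme of bile acid synthesis, stood at 57.4 and 44.98 CPM in PV, 105.8 and 104.7 in ML, and 365 and 370.2 in CV. Its PV minus ML difference was -1.05 ± 0.09 (adjusted p = 7.17e-05). ML had covered 32.03% of the way to the CV level for Csad, 17.1% for Cyp7a1 and 13.2% for Gulo. These 4 calls remained without any 1 of the 6 libraries in edgeR. Because the markers were chosen with earlier results of these data known, a kept call was nearly fixed in advance. DESeq2 called Hsd17b6, Gulo and Cyp7a1 and gave Csad no adjusted p. In a test against a 1.5-fold minimum Csad, Gulo and Cyp7a1 remained and Hsd17b6 did not (adjusted p = 0.248).

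**Figure D1:**
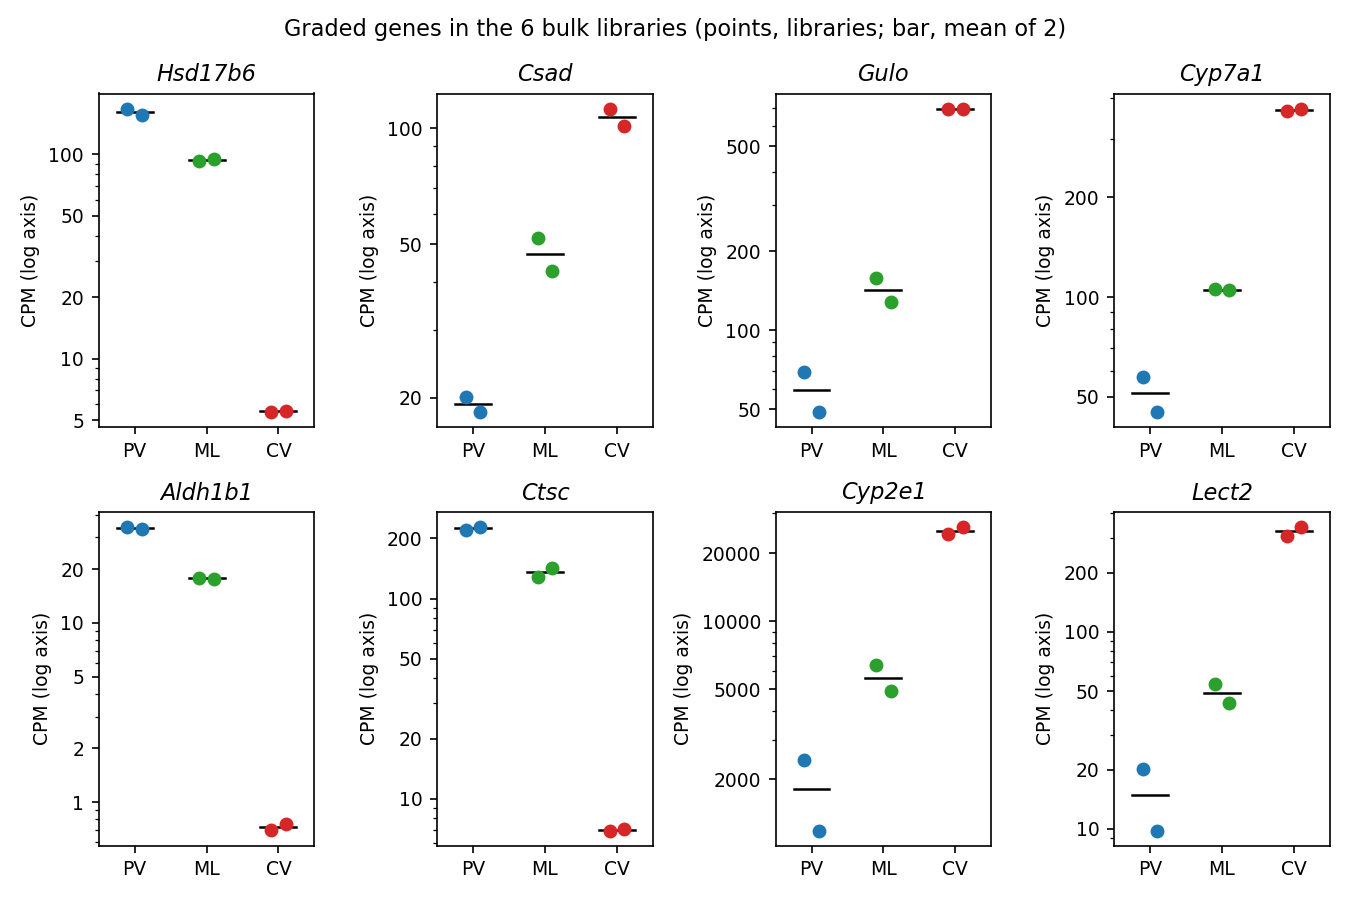
CPM on a log axis of 8 graded genes in the 6 bulk libraries, with 1 point per library and a bar at the mean of the 2 libraries of each group. ML lay between PV and CV in all 8, for example at 92.97 and 94.8 CPM for Hsd17b6 between 167.6 and 156.5 in PV and 5.49 and 5.57 in CV.

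Promoter windows are shown for Hsd17b6 and Csad, markers of opposite direction, at both of their annotated starts, and for 2 central-high genes described further on. Each is the 250 bases before a start, 5′ to 3′ on the strand of the gene, from RefSeq on GRCm38.p6. Capitals mark letters of the TCF/LEF motif (CTTTG followed by AA, AT, TA or TT, through which Wnt signals act) or of the NR5A2 motif (CAAGGNCA), both searched on both strands.
Hsd17b6 start 1, chr10:128007612-128007861, minus strand: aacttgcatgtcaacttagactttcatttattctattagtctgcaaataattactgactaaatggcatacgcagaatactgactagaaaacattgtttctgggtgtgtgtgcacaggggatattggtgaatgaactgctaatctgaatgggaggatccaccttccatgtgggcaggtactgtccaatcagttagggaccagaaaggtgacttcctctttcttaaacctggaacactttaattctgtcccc
Hsd17b6 start 2, chr10:128007509-128007758, minus strand: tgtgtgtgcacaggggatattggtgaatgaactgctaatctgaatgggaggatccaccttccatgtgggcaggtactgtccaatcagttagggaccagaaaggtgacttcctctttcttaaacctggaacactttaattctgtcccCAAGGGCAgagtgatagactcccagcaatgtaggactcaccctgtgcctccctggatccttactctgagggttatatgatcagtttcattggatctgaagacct
Csad start 1, chr15:102205053-102205302, minus strand: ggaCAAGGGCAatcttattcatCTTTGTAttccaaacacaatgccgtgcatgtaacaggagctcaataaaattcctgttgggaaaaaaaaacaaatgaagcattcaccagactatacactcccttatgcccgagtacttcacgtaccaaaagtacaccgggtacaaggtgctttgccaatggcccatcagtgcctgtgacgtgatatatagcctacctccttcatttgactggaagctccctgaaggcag
Csad start 2, chr15:102189044-102189293, minus strand: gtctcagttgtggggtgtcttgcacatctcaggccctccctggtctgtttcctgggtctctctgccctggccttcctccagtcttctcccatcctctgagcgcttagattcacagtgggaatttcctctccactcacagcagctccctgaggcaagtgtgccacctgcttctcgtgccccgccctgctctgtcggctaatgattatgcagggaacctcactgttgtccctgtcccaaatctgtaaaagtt
Cyp2e1, chr7:140763569-140763818, plus strand: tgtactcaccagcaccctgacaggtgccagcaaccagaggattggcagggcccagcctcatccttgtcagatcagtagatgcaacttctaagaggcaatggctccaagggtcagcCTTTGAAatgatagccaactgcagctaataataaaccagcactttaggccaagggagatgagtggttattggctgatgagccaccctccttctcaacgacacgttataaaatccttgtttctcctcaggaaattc
Lect2, chr13:56548539-56548788, minus strand: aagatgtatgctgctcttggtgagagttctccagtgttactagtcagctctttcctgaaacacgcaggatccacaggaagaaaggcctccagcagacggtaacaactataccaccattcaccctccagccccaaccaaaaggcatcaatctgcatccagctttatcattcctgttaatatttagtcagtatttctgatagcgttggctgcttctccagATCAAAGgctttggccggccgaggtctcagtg

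Each of Hsd17b6 and Csad had a window with the NR5A2 letters and a window with neither motif, and the windows of Hsd17b6 overlap. The Csad window with the NR5A2 letters also held the TCF/LEF letters. The windows shown for Cyp2e1 and Lect2 both held the TCF/LEF letters, as did those of the central-high genes Cyp2c29, Cyp1a2 and Nxpe2. The windows of the central-high genes Cyp2c69, Cyp2c40, Aldh3a2, Npr2, Avpr1a and Susd4 did not, so the windows shown do not stand for the class.

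The TCF/LEF letters stood in 14 of 56 windows of central-high graded genes (25%) and in 15 of 68 windows of portal-high graded genes (22.1%). They stood in 10.7% of the windows of all genes tested and in 14.8% of all 32851 windows in the table. By gene, they stood in 33.3% of central-high genes with a window, 23.3% of portal-high genes and 12.4% of genes tested. The HNF4A letters (CAAAGTCCA) stood in 4 central-high windows (7.14%), 1 portal-high window (1.47%), 0.429% of windows of genes tested and 0.384% of all windows. The 4 include windows of Cyp2c69 and Cyp2c40 with the same sequence around the match, so they are not separate occurrences. The C/EBP letters (TTGCNNAA) stood in 14 portal-high windows (20.6%), 6 central-high windows (10.7%), 8.07% of windows of genes tested and 9.56% of all windows. The NR5A2 letters stood in 7 (10.3%), 4 (7.14%), 4.51% and 5.53% in the same order. Such matches describe letters only. Of 41 genes looked up, 30 had a window, and Gulo and Cyp7a1 did not.

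Nearly all genes called between PV and ML lay on a gradient that continued to CV. Of the 95 genes higher in PV, 86 were also higher in ML than in CV (graded portal-high, 0.783% of genes tested), and of the 67 higher in ML, 58 were higher still in CV (graded central-high, 0.528%). Both counts follow from calls that share the ML libraries. The genes higher in PV whose step from ML to CV was not called numbered 5 and were Crip2, Emc3, Ccnc, Tmem248 and Mup21. The genes higher in ML whose step to CV was not called numbered 7 and were Tmem259, Col27a1, Luc7l2, Oaf, Scd1, Neat1 and Yam1. These were listed because they are few, and only Mup21, Scd1 and the most abundant symbol Yam1 fall under a fixed rule or list or are described further. Yam1 took 10.4% and 10.1% of all counts in PV, 12.8% and 12.6% in ML, and 14.6% and 14.8% in CV, and the annotation used here holds no gene of that symbol.

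**Figure D2:**
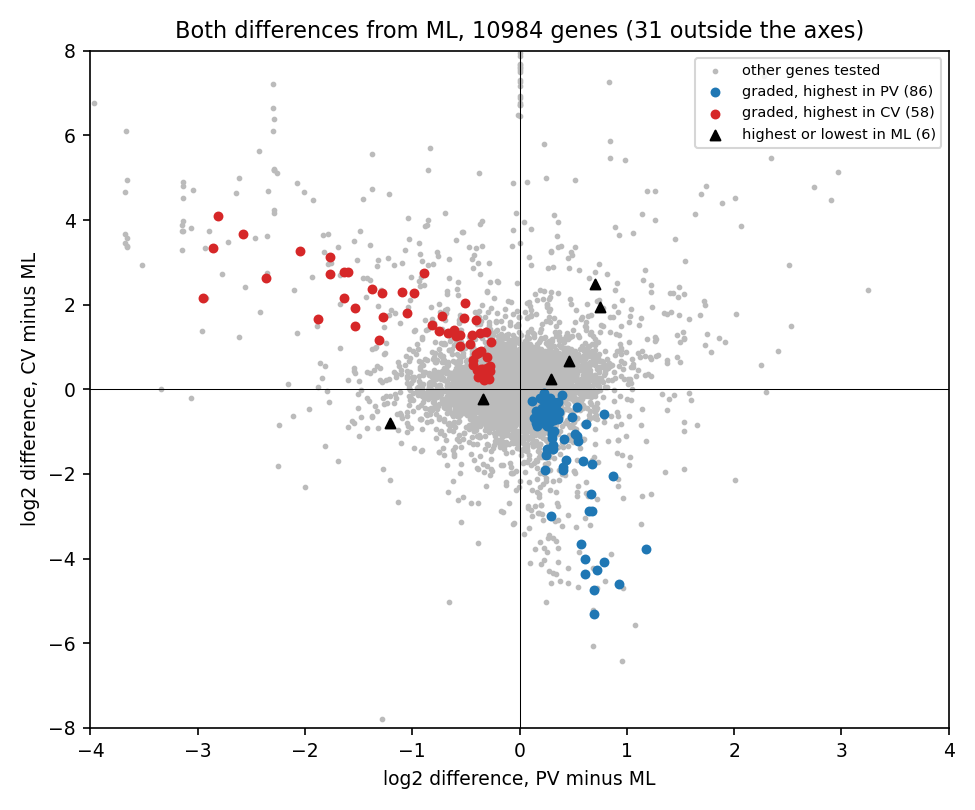
Log2 difference of PV from ML (x axis) against that of CV from ML (y axis) for 10984 genes, with graded genes in colour and the 6 genes at an extreme in ML as triangles. Graded portal-high genes (86) lie at the lower right and graded central-high genes (58) at the upper left. Both axes use the same ML libraries, so the axes are not independent, and 31 genes lie outside them.

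Among the graded portal-high genes with the largest steps, Aldh1b1 (chr4:45799022-45804604), a mitochondrial aldehyde dehydrogenase, stood at 34.2 and 33.4 CPM in PV, 17.9 and 17.6 in ML, and 0.694 and 0.760 in CV (PV minus ML log2 0.93 ± 0.11). Ctsc (chr7:88278085-88310888), the protease cathepsin C, stood at 220.8 and 227.5, 128.3 and 142.99, and 6.94 and 7.03. Sds, the serine dehydratase that feeds serine into gluconeogenesis, stood at 110.7 and 111.2, 62.02 and 74.98, and 1.87 and 1.58. In all 3 genes the groups were apart, and the ML libraries of Sds differed from each other more than those of Aldh1b1 and Ctsc. Cyp39a1, an oxysterol hydroxylase of bile acid synthesis, stood at 42.2 and 47.7 CPM in PV, 27.8 and 28.5 in ML, and 4.37 and 3.29 in CV. Mfsd2a, a transporter of lysophospholipids, stood at 47.9 and 54.1, 31.97 and 32.1, and 9.51 and 9.37. Hsd17b13, a lipid droplet enzyme, stood at 939 and 1008, 617 and 656, and 46.5 and 31.97. The remaining genes under the same rule were Ugt2b38, Cryl1, Mup20, Gas2 and Car14, with log2 differences of 0.62 to 0.87. Ugt2b38 and Mup20 belong to families with near-identical members, so the member is uncertain.

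The calls of Hsd17b13, Cryl1 and Endog depended on single libraries. Hsd17b13 had an adjusted p of 0.0137 with all libraries, 0.159 without ML replicate 1 and 0.0797 without ML replicate 2. Cryl1 had an adjusted p of 0.0301 with all libraries and 0.316, 0.116 and 0.272 without PV replicate 2, ML replicate 1 and ML replicate 2. Endog, a mitochondrial nuclease that was among the 12 genes with the largest PV excess, gave 0.332, 0.216 and 0.128 in the same fits. Mup21 (221.1 and 251.5 CPM in PV, 146.7 and 128.4 in ML, 116.2 and 127.9 in CV) stayed called in each of them.

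Graded central-high genes had larger steps and more spread between libraries. Lect2 (chr13:56542464-56548502), a secreted protein known as a β-catenin target, stood at 20.05 and 9.81 CPM in PV, 54.3 and 43.3 in ML, and 307.5 and 340.2 in CV (PV minus ML log2 -1.77 ± 0.21). Cyp2e1 (chr7:140763739-140774987), which oxidises ethanol and acetaminophen, stood at 2443 and 1190.1, 6377 and 4899, and 24244 and 26036. Both genes separated the 3 groups without overlap, but PV replicate 1 held about 2 times the level of PV replicate 2 in each. Cyp2c29 stood at 451 and 216.8 CPM in PV, 1114 and 822 in ML, and 3586 and 3751 in CV. Cyp1a2, which metabolises caffeine, stood at 147.8 and 93.9, 348 and 278.7, and 1589 and 1648. Cyp2c69 and Cyp2c40 showed the same order, and for the Cyp2c genes the member is uncertain.

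Genes at low level in PV followed the same order. Tbx3, a transcription factor and Wnt target, stood at 0.154 and 0.234 CPM in PV, 1.98 and 1.02 in ML, and 15.3 and 15.7 in CV. Lhpp, a phosphatase, stood at 1.47 and 0.234, 6.29 and 3.55, and 79.2 and 90.9. Avpr1a, the vasopressin receptor of hepatocytes, stood at 2.16 and 2.102, 9.07 and 6.53, and 24.8 and 24.4. In PV replicate 1 Tbx3 was under the level of 3 counts (0.216 CPM in that library). For Lhpp in PV replicate 2, 3 counts were worth 0.132 CPM against its 0.234. The PV levels of these genes therefore rest on few counts in those libraries. The calls of Tbx3 and Lhpp were lost without ML replicate 1 (adjusted p = 0.0976 and 0.0607). Those of Npr2 and Susd4 were lost without PV replicate 2 (0.0668 and 0.261) and without ML replicate 1 (0.0895 and 0.248). Aldh3a2, which oxidises fatty aldehydes, was lost without ML replicate 1 (0.159).

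PV replicate 1 held more of the central transcripts than PV replicate 2. Of the 58 graded central-high genes, 52 were higher in PV replicate 1, with a median ratio of 1.13 and a highest ratio of 6.27, and 13 were over 1.5-fold higher. In ML, 47 of the 58 were higher in replicate 1 (median ratio 1.11). Among the 86 graded portal-high genes, 28 were higher in PV replicate 1 (median ratio 0.986). Without PV replicate 1, 75 genes were graded central-high, and without PV replicate 2, 31 were.

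ML stood nearer to PV than to CV. For the 86 graded portal-high genes ML lay at a median of 39.3% of the way from PV to CV, with a range of 19.7% to 77.3%. For the 58 graded central-high genes the median was 19.6%, with a range of 4.84% to 55.7%. Among these, ML replicates 1 and 2 lay apart for some genes and close for others, at 23.4% and 14.6% for Cyp2c29 and 17.3% and 16.9% for Cyp7a1. On the log2 scale the step from ML to CV was the larger in 75 of the 86 and in 48 of the 58. A test of ML against the midpoint of PV and CV called 54 and 20 of these genes, all with the larger step on the central side. Over all genes tested, ML was above that midpoint in 362 (3.3%) and below it in 2.23%.

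The graded genes had to pass a test between PV and ML, which selects for an ML level away from PV. Without that condition, for 348 genes at least 2-fold higher in PV than in CV, ML lay at a median of 24.2% of the way (quartiles 12.7% and 38.2%), and 45 of them were called between PV and ML. For 563 genes at least 2-fold higher in CV, the median was 8.72% (quartiles 1.66% and 20.03%), and 47 were called. Glul, the glutamine synthetase of the cells around the central vein, was among the latter. It stood at 20.6 and 17.9 CPM in PV, 40.99 and 20.8 in ML, and 562 and 548 in CV, with no call between PV and ML (adjusted p = 0.159). The genes higher in CV include those of the stellate and macrophage markers given above, and their part in the difference between 24.2% and 8.72% was not tested.

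**Figure D3:**
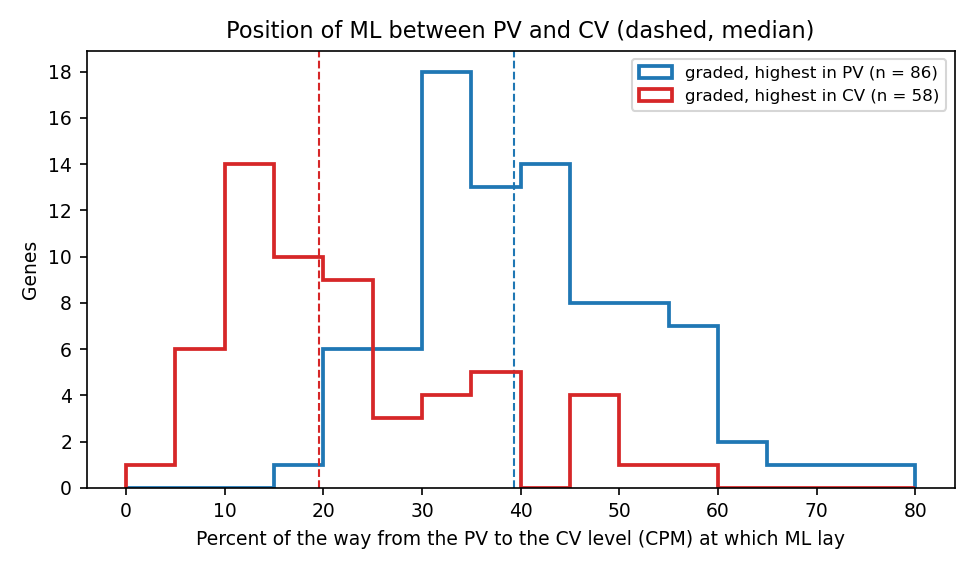
Number of graded genes (y axis) by the percent of the way from the PV to the CV level, in CPM, at which ML lay (x axis), for the 86 genes highest in PV and the 58 highest in CV. Dashed lines mark the medians of 39.3% and 19.6%.

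Gene groups are given as the number called among those tested, beside 95 and 67 of 10984 genes and a median log2 difference of 0.00 over all genes. Plasma proteins and coagulation factors were the group with the most genes higher in PV, 13 of 31 (median log2 0.11), and none was higher in ML. The genes of this group summed to 204566 and 205430 CPM in PV. The share called was not compared with that of other genes at a like level. Alb (albumin) stood at 90898 and 91759 CPM in PV, 78502 and 75701 in ML, and 27114 and 25618 in CV. Hpx, the heme carrier hemopexin, stood at 9690.2 and 10164, 7470.4 and 7526, and 2039.5 and 2182. The changes were small and even between libraries, at log2 0.24 ± 0.02 for Alb and 0.40 ± 0.04 for Hpx. All 3 fibrinogen chains (Fga, Fgb, Fgg), Ttr, Ahsg, F9, Serpind1, Kng1, Ambp, Apoc3 and Vtn made up the rest. The count was 8 with no composition factor, and 9, 7, 7 and 6 without PV replicate 1, PV replicate 2, ML replicate 1 and ML replicate 2.

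Genes listed as periportal had 6 of 23 higher in PV and none higher in ML (median log2 0.22). They included Sds, Hsd17b13, Ctsc, Alb and Igf1. The count was 11 without either CV replicate and with DESeq2, and 4 without either ML replicate. Of 9 gluconeogenesis genes 2 were higher in PV, 4 without either CV replicate, among them Fbp1 (2111 and 2165 CPM in PV, 1738 and 1729 in ML). Of 14 glycolysis and glycogen genes, Gpi1 and Khk were higher in PV, and 0 were without PV replicate 2, ML replicate 1 or ML replicate 2. None of the 11 urea cycle genes was called in the edgeR fit, although 7 were higher in ML than in CV. Cps1, the entry enzyme of the cycle, stood at 2171 and 2077 CPM in PV and 2214 and 2246 in ML, and Ass1 at 4575 and 4489.7 and at 4128 and 4189.9. DESeq2 called 4 urea cycle genes higher in PV, and edgeR called 2 without either CV replicate.

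Genes listed as Wnt targets and pericentral had 6 of 20 higher in ML and none higher in PV (median log2 -1.08). They were Tbx3, Lect2, Cyp2e1, Cyp1a2, Lhpp and Cyp27a1, and 18 of the 20 were higher in CV than in ML. The count was 3 without ML replicate 1 and 9 without ML replicate 2. Of 30 cytochrome P450 and conjugation genes, 7 were higher in ML and 1, Ugt2b5, in PV. The number higher in ML rose without PV replicate 1 and fell without PV replicate 2, ML replicate 1 or ML replicate 2. The higher ML genes included Por, the reductase that hands electrons to the P450 enzymes, at 194.01 and 166.4 CPM in PV and 241.5 and 229.2 in ML (log2 -0.39 ± 0.07). Its PV and ML libraries did not overlap.

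Bile acid genes were called in both directions. Of 27, 5 were higher in ML: Cyp7a1, Cyp27a1 and Akr1c6 of synthesis, Abcc2, which exports conjugates into bile, and Slco1b2, which takes up organic anions from blood. Cyp39a1 and Nr0b2, the repressor SHP, were higher in PV. Nr0b2 stood at 67.5 and 63.3 CPM in PV, 53.1 and 47.8 in ML, and 35.4 and 34.1 in CV. The count higher in ML was 3 without PV replicate 2 and 2 without ML replicate 1. Cyp8b1, which sets the share of cholic acid, stood at 290.3 and 264.9 CPM in PV, 317.5 and 312.4 in ML, and 434 and 425 in CV, with no call between PV and ML (adjusted p = 0.216).

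Smaller groups split by enzyme. Of 7 vitamin C genes, Gulo and Rgn (regucalcin, the lactonase of the step before it) were higher in ML, with Rgn at 242.8 and 154.99 CPM in PV, 492 and 465 in ML, and 1516 and 1624 in CV. The other 5 were not called, Ugdh at 91.5 and 88.7 CPM in PV and 104.3 and 103.98 in ML being nearest. Of 16 sulphur amino acid genes, Csad and Cdo1, consecutive enzymes of taurine synthesis, were higher in ML, with Cdo1 at 700.1 and 689 CPM in PV and 871 and 873 in ML. Of 18 steroid and retinol dehydrogenases, Hsd17b6, Hsd17b13 and Hsd11b1 were higher in PV and Akr1c6, Rdh16 and Aldh1a1 higher in ML. The 3 higher in PV became 1 without either ML replicate, and the 3 higher in ML became 5 without either CV replicate. Of 30 transcription factors, Tbx3 and Rxra were higher in ML and none in PV, with Rxra, the partner of many nuclear receptors, at 25.99 and 24.4 CPM in PV and 32.99 and 31.5 in ML, and the list had 0 calls without ML replicate 1. Of 26 genes of amino acid breakdown, Sds and Tdo2 were higher in PV, with 1 call in PV without either ML replicate and 4 without either CV replicate.

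Major urinary proteins, small pheromone carriers secreted by the liver, went both ways. Of 11, Mup3, Mup20 and Mup21 were higher in PV and Mup11 was higher in ML, and 5 were higher in PV without either CV replicate. Mup20 stood at 13479 and 16774 CPM in PV, 8803 and 10248 in ML, and 1731 and 1721 in CV. The PV and ML libraries did not overlap, and reads of near-identical members may be split between them.

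Single members were called in further groups. Gstp1 (glutathione genes), Igf1 (growth factor binding), Lbp (acute phase) and Cyp4a14 (fatty acid oxidation) were each the only member of their list called, and these 4 were higher in PV. Their lists depended on single libraries. The growth factor list had 0 calls without PV replicate 1, PV replicate 2, ML replicate 1 or ML replicate 2 and with no composition factor. The acute phase list had 0 higher in PV without PV replicate 2 or ML replicate 1 and 7 without either CV replicate. The glutathione list had 0 higher in PV without ML replicate 2, and the fatty acid oxidation list without ML replicate 1. Scd1, the desaturase that makes oleate, was the only 1 of 14 fatty acid synthesis genes called, and was higher in ML at 514 and 501 CPM against 407 and 394 in PV. The list had 0 calls without PV replicate 2, ML replicate 1 or ML replicate 2. Gstp1, a glutathione transferase, stood at 3197 and 3737 CPM in PV, 2671 and 2184 in ML, and 1094 and 1245 in CV. Igf1, insulin-like growth factor, stood at 1155 and 1179.5, 994 and 1010.0, and 579 and 603. With all 6 libraries, no member was called by edgeR among the lists of cholesterol synthesis, iron handling, clock, oxygen response, unfolded protein response, immediate early, cell cycle, ribosomal protein and respiratory chain genes. Without 1 of the CV replicates edgeR called 1 cholesterol synthesis, 2 iron handling, 1 oxygen response, 1 unfolded protein response and 1 respiratory chain gene, the same numbers for either replicate. Single calls also appeared in the iron list without PV replicate 1 or ML replicate 1, in the oxygen list without PV replicate 1, and in the cholesterol list with no composition factor. DESeq2 called 8 respiratory chain, 3 unfolded protein response and 2 iron genes higher in PV, and 1 cholesterol gene in each direction. Before adjustment, 1295 of the 10984 genes had p under 0.05.

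Genes highest in ML were few. Mup11 and Pim3 were higher in ML than in both PV and CV (0.0182% of genes tested). Mup11 (chr4:60658466-60662411), a major urinary protein, stood at 386 and 189.3 CPM in PV, 717 and 611 in ML, and 440.1 and 322.9 in CV (PV minus ML log2 -1.21 ± 0.23, adjusted p = 0.0182). Both ML libraries were above the other 4, but the PV libraries differed among themselves about as much as the groups did, and the family's near-identical members leave the member uncertain. Pim3 (chr15:88862186-88865726), a serine/threonine kinase, stood at 37.9 and 35.4 CPM in PV, 46.6 and 46.3 in ML, and 39.3 and 39.9 in CV (log2 -0.35 ± 0.07, adjusted p = 0.0206). Neither call held without ML replicate 1 (adjusted p against PV 0.150 for Mup11 and 0.159 for Pim3) or without ML replicate 2 (0.0510 and 0.109), and Pim3 was also lost without PV replicate 2 (0.276).

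The genes highest in ML changed with the library left out and with the model. With no composition factor the only such gene was Ces1e, and with DESeq2 they were C4b and Ces1d. With no filter on low counts they numbered 15, Mup11 and Pim3 among them. Pim3 was not among them without either CV replicate, and Mup11 was not without CV replicate 2. Without ML replicate 1 they were Ccl2, Hamp2, Saa3, Spp1 and Tlr2, and without ML replicate 2 Gbp7 and Oasl2. These genes, apart from Mup11 and Pim3, were named after their values were seen. Saa3, an acute-phase protein, stood at 8.02 and 13.8 CPM in PV, 7.31 and 44.7 in ML, and 2.71 and 8.80 in CV, so 1 ML library carried the level. Both ML libraries were above the other 4 in 632 genes (5.75%) and below them in 634 (5.77%).

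Hamp and Igfbp2, described for the middle of the lobule, were highest in both ML libraries but were not called against PV. Hamp (chr7:30942368-30944032), the iron hormone hepcidin, stood at 781 and 679 CPM in PV, 890.4 and 929.8 in ML, and 468 and 605 in CV. Its adjusted p was 0.161 against PV and 6.08e-05 against CV. With all libraries but no filter on low counts, Hamp was among 15 genes called highest in ML. Hamp was called highest in ML without PV replicate 1, without CV replicate 1 and without CV replicate 2. Without CV replicate 2 it was the only such gene, and without CV replicate 1 the others were Mup11, C4b, Mup19 and Scd1. Igfbp2, which binds insulin-like growth factors, stood at 111.4 and 116.6 CPM in PV, 124.9 and 127.004 in ML, and 63.9 and 31.7 in CV (adjusted p = 0.830 against PV). Hamp2, a close relative of Hamp, differed more between the ML libraries, at 34.9 and 101.2 CPM, than between groups.

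Genes lowest in ML numbered 4 (0.0364%): Cyp4a14, Dct, Map1lc3a and Apoc4. Cyp4a14, a fatty acid hydroxylase, stood at 31.4 and 25.1 CPM in PV, 15.4 and 18.97 in ML, and 99.6 and 93.1 in CV. Dct, known for melanin synthesis, stood at 14.3 and 14.7, 9.52 and 7.68, and 33.5 and 33.3. Apoc4, an apolipoprotein, stood at 512 and 494, 418 and 404, and 489 and 481. Map1lc3a, a protein of autophagosome membranes, stood at 53.4 and 55.8, 37.5 and 42.1, and 71.3 and 55.5. For each of these genes both ML libraries were below the other 4. The call against PV was lost for Dct without PV replicate 2 (adjusted p = 0.0558) and without ML replicate 2 (0.102), and for Cyp4a14 without ML replicate 1 (0.0926). Apoc4 lost it without PV replicate 1 (0.104), ML replicate 1 (0.0955) and ML replicate 2 (0.172), and Map1lc3a without PV replicate 2 (0.181), ML replicate 1 (0.325) and ML replicate 2 (0.0859).

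**Figure D4:**
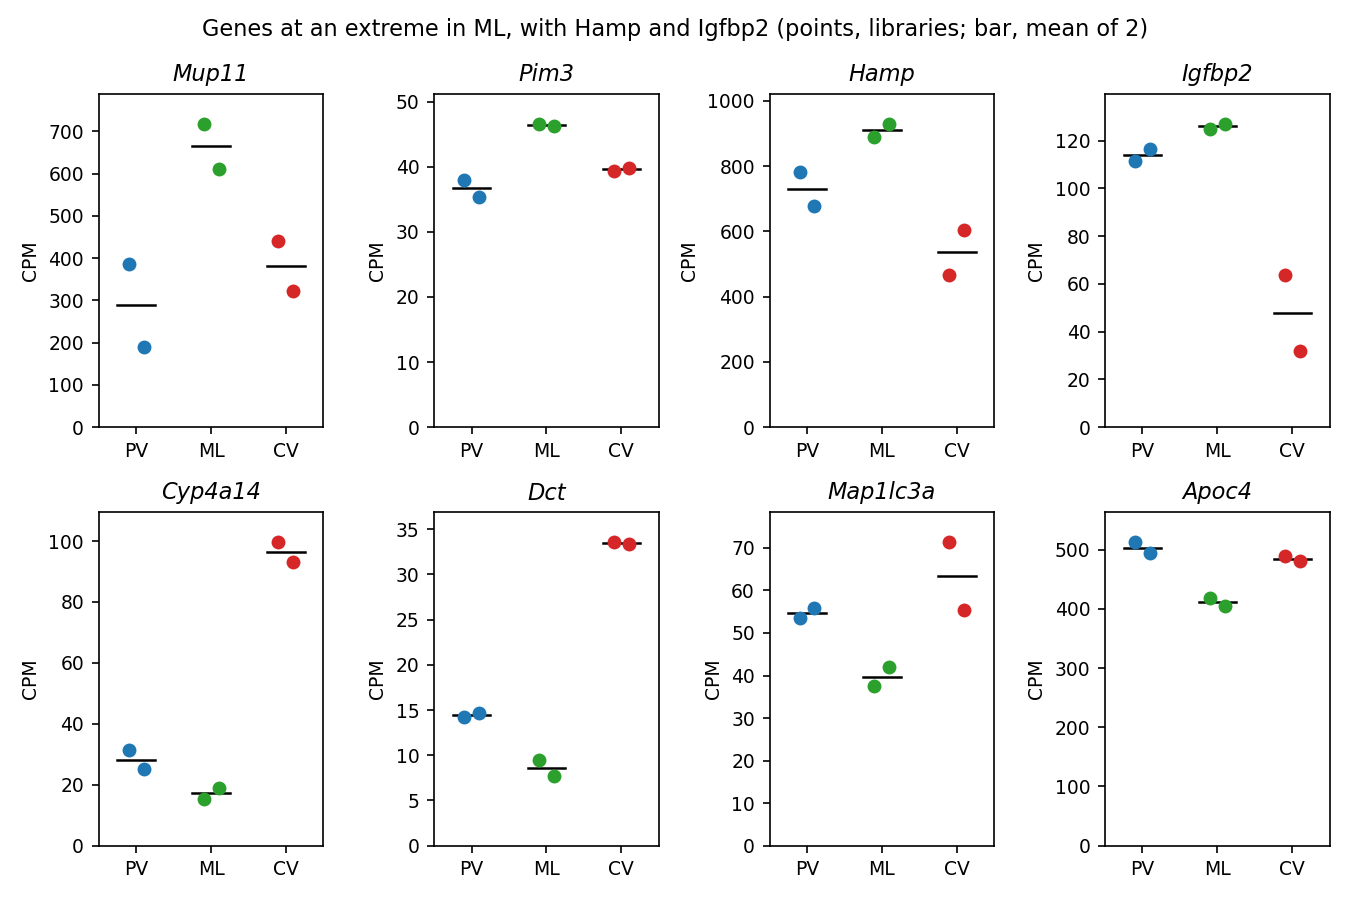
CPM of 8 genes in the 6 bulk libraries, on axes that start at 0, with 1 point per library and a bar at the mean of the 2. Mup11, Pim3, Hamp and Igfbp2 had both ML libraries highest. Hamp and Igfbp2 were not called between ML and PV. Cyp4a14, Dct, Map1lc3a and Apoc4 had both ML libraries lowest.

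Single cells of the same age gave a second readout of position. At P60, hepatocytes sorted into 2N, 4N and 8N by their DNA content had been sequenced one by one (mSTRT-seq). Those with at least 20000 counts were ordered within each sort by a score of 10 portal and 10 central landmark genes and summed in 3 bins of nearly equal cell number. Each bin is 1 pool, so there is no test. The bins are ranges of a score, with 21, 37 and 13 cells within 0.05 of a boundary, and the central bin of the 2N cells began at a lower score (-0.28) than those of the 4N (-0.06) and 8N cells (0.04). Of 80 graded portal-high genes with at least 100 counts in each group, 63 were higher in the portal than in the central bin in all 3 groups, and 20 were lower at each step in all 3. Of 43 graded central-high genes, 36 and 21 did so in the other direction. Landmark genes were left out of these counts. The counts were made only for the graded genes and the genes at an extreme in ML, so no share over all genes stands beside them.

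The markers kept their bulk direction between the outer bins. Hsd17b6 stood at 637, 579 and 379.9 CPM in the portal, middle and central bins of 2N cells, 701, 252.6 and 31.7 in 4N cells, and 588, 164.5 and 5.90 in 8N cells. Csad stood at 38.6, 55.6 and 192.8, then 45.9, 117.3 and 372, then 50.5, 189.8 and 542. Gulo stood at 8.30, 3.55 and 156.997, then 9.97, 34.7 and 708, then 13.1, 73.3 and 711. The middle bin was thus between the outer bins in 4N and 8N cells for these 3 genes, and in 2N cells for Hsd17b6 and Csad. Cyp7a1 stood at 2.21, 0.154 and 69.6 CPM in 2N cells, 2.20, 40.7 and 206.2 in 4N cells, and 6.56, 129.1 and 163.2 in 8N cells. The middle pools had fewer counts per cell in 4N and 8N cells, with medians of 118186 and 91155 against 162018 and 157236 in the portal pools.

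Genes high in ML in bulk were not all highest in the middle bin. Hamp was highest there in 4N cells (558, 998 and 751 CPM) and 8N cells (738, 1029.8 and 378) but not in 2N cells (664, 508 and 727). Igfbp2 was highest there in 8N cells alone (272.9, 437 and 194.3 CPM). Mup11 was highest in the central bin of all 3 groups, at 1024, 5251 and 5418 CPM against 70.6, 431 and 493 in the middle bin. Pim3 was highest in the portal bin of 2N and 4N cells and in the central bin of 8N cells. Neither gene called highest in the ML libraries was highest in the middle bin in any of the 3 groups.

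**Figure D5:**
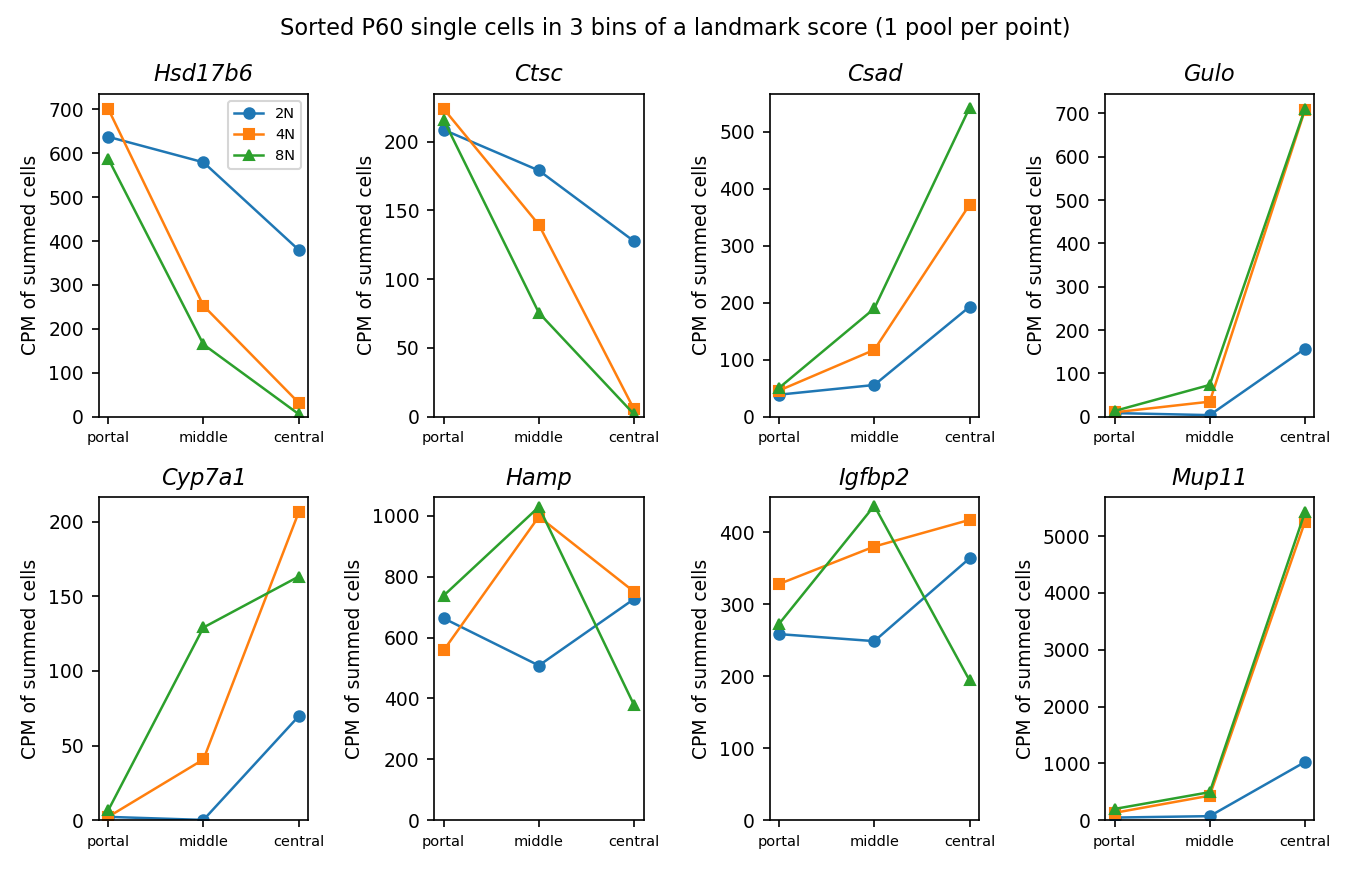
CPM of summed P60 single cells in the portal, middle and central bins of the landmark score, for 8 genes, with 1 line for each DNA content and 1 pool per point. Hsd17b6 and Ctsc were lowest and Csad highest in the central bin of each group. Hamp was highest in the middle bin of 4N and 8N cells, and Mup11 in the central bin of each group.

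The genes whose levels followed each marker most closely over the 6 libraries were found by Pearson correlation of log2 CPM. For Hsd17b6 they were Aldh1b1, Apcs, Ctsc, Irf7 and Apon. For Csad they included Avpr1a, Arhgef26, Letm1 and Aldh2. Cyp7a1 was followed by Chd3, Etnk2, Gulo, Nxpe2 and Vprbp, and Gulo by Vprbp, Cyp1a2, Cyp7a1, Rnase4 and Cyp2c54. The correlations lay between 0.992 and 1.00 over 6 points that form 3 pairs, so they describe the same order of the groups and were given no p.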

How the data were processed

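Raw counts, as deposited, cover 40824 gene symbols and 92 ERCC entries; the latter had 0 counts in the bulk libraries. Per the labels' protocols, the bulk libraries were made from poly(A) RNA with a directional kit. The submitters' processing notes list TopHat2 2.1.0, HISAT2 2.1.0, HTSeq 0.6.0 and featureCounts 1.5.3 and 2.0.0 among their tools and give GRCm38 and mm10 as builds. Which tool counted the reads, with what strand setting, and how reads of similar genes were divided is not given in the sources used here. Overlapping, antisense and near-identical genes are therefore uncertain.

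The 6 bulk libraries were fitted together with edgeR 4.0.16 in R 4.3.3 (TMM, filterByExpr, two-sided quasi-likelihood F test, 3 residual degrees of freedom, common biological coefficient of variation 0.094), with Benjamini-Hochberg adjustment over 10984 genes and a threshold of 0.05. An exact permutation test of 2 against 2 libraries cannot go below p = 0.333. DESeq2 1.42.0 was an alternative. Errors are SE of log2 differences. A graded gene passed between PV and ML and, in the same direction, between ML and CV. Named genes were the markers and sorting antigens, the 12 largest differences in each direction and the 12 graded genes with the largest smaller step in each direction (mean of at least 10 CPM in the higher group, libraries not overlapping), genes at an extreme in ML, and called members of the gene lists. The comparison, the markers and the gene lists were chosen with earlier results of these data known. The scripts were tested on simulated data. Single cells (124, 144 and 83 of 2N, 4N and 8N with at least 20000 counts) were summed in 3 bins per sort, and 1817 columns of that table were not used. Positions are from GENCODE M21. The limit of 3 counts covers counting error only. Some genes that met these rules are not reported here.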

Additional observations from a re-analysis of the deposited data

How the results depend on the processing

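None of the named genes turned its direction under the alternatives run, and of 523 named-gene results over these settings 460 kept their side of the threshold. Most of these genes were picked because they were called in these same libraries, so a kept direction was nearly fixed in advance. Against a 1.5-fold minimum 29 of 39 named genes lost their call. DESeq2 gave an adjusted p for only 17 of the 39. DESeq2 size factors in edgeR, and a filter of 1 CPM in 2 or more libraries, left the counts of genes within 1.5 times those reported. Counts are given below as percentages of the genes fitted, where 0.865% were higher in PV, 0.61% higher in ML, 0.783% and 0.528% graded portal-high and central-high, and 0.0182% and 0.0364% highest and lowest in ML. With no composition factor they were 0.546% and 0.974%, 0.437% and 0.801%, and 0.0091% highest in ML (Ces1e), with the median log2 difference of all genes at -0.06 for PV minus ML and 0.17 for CV minus ML. With no filter, 18733 genes were fitted and the percentages were 1.09%, 0.875%, 0.774%, 0.63%, 0.0801% and 0.101%, so that the genes higher in PV and in ML numbered 2.16 and 2.45 times those reported. DESeq2 fitted 18733 genes and gave an adjusted p for 1300 between PV and ML. Of all genes fitted it called 1.09% higher in PV, 0.843% graded portal-high, 0.048% lowest in ML and 8.49% between CV and ML (21.95% in edgeR). Only the 1300 could be called between PV and ML, and edgeR fitted 10984 genes, so the shares of the 2 methods do not compare directly. By number, DESeq2 called more genes than edgeR as higher in PV, graded portal-high and lowest in ML. It called fewer between CV and ML. Against a 1.5-fold minimum 0 genes were higher in PV, graded portal-high, or highest or lowest in ML, while 0.0728% were higher in ML and the same share graded central-high, 5.34% differed between CV and ML, 7.29% between PV and CV (28.96% without the minimum) and 0.574% between ML and the midpoint (5.53%). The 0 genes higher in PV compare with 95 by edgeR without the minimum. With only the 4 PV and ML libraries, 1.68% were higher in PV.

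Leaving out each library in turn gave 0.404% to 1.47% higher in PV, 0.281% to 0.841% higher in ML, 0.344% to 1.14% graded portal-high, 0.2196% to 0.663% graded central-high, 0.00876% to 0.0442% highest in ML, 0.00878% to 0.0707% lowest in ML, 2.55% to 5.796% between ML and the midpoint, and for ML a median of 37.9% to 40.1% of the way from PV to CV in portal-high genes. The range of that median for central-high genes is not reported here. Where a group keeps 1 library, that library was assumed to vary like the others. Which property of a library moved the counts was not tested. Replicate numbers are shared across groups but pair nothing in the labels. Deviations of same-numbered libraries correlated at 0.124 (PV with ML), 0.102 (PV with CV) and 0.066 (ML with CV). With a replicate block, 96 genes were higher in PV and 69 in ML, and the graded genes numbered 81 and 60. Of the named genes the block ended the call of Map1lc3a alone (adjusted p = 0.0511). As 3 counts are worth up to 0.228 CPM, differences between levels under that were not detectable at this depth.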
